A study of Homo sapiens with 4 samples.

Results

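Semaphorins, plexins and neuropilins were examined in single nuclei of enteric ganglioids, free-floating three-dimensional cultures of enteric neurons and their progenitors derived from H9 cells, an established human embryonic stem cell line. Members were all genes whose symbol names a class 3 to class 7 vertebrate semaphorin, a plexin of family A to D, or NRP1 or NRP2. This rule found 31 of the 36601 features counted: 7 class 3 semaphorins, 13 membrane-bound semaphorins, 2 neuropilins and 9 plexins. Both groups passed through the same neural crest induction, crestosphere and ganglioid stages and the same H9 background, and each of the 2 holds 2 differentiation replicates. Control ganglioids are labelled only as control, whereas PP121 ganglioids had 2 μM PP121, an inhibitor of PDGFR and other kinases, in the medium from day 15 to day 20. The deposited annotation places replicate 1 of both groups at day 42 and replicate 2 of both groups at day 38, so day and differentiation cannot be told apart. All samples come from 1 stem cell line, which limits what the cultures can stand for. The p-values rest on these few differentiations and on a spread estimated partly, and in some fits largely, across genes. Those for nitrergic against other neurons rest on differences within samples.

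Semaphorins are extracellular guidance cues that steer growing axons and migrating cells, and plexins are their signalling receptors. Class 3 semaphorins are secreted and mostly need a neuropilin to hold the ligand on an A-type plexin, whereas the transmembrane semaphorins bind plexins directly. Activated plexins signal to the cytoskeleton and to cell adhesion. In the gut, class 3 semaphorins are made by the developing wall, and semaphorin genes have been linked to Hirschsprung disease, in which enteric neurons are missing from the distal bowel.

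The 4 samples held 2912 to 4587 annotated nuclei with a median of 6289 to 7071 unique molecular identifiers (UMIs, counted transcripts) per nucleus, and any 2 samples shared at most 8 nucleus barcodes. Levels below are CPM, the UMIs of a gene summed over the nuclei of a class in a sample and scaled to a common total. They are compared between classes and samples but not between genes, since they are not per transcript length. The edgeR fits also normalize between samples (TMM), whereas the printed CPM, the ratios within a day and the overlap counts do not. Fitted differences can therefore depart from them. The classes are those the authors deposited. The summed level of 7 neuron markers was 907 to 1151 CPM in enteric neurons against 273 to 374 CPM in progenitors, but RET, a receptor that marks the enteric lineage, stayed at 1.19 to 1.71 CPM in enteric neurons. The summed level of 7 progenitor markers was 75.1 to 87.1 CPM in progenitors and 37.8 to 45.4 CPM in neurons. It was 50.2 to 81.2 CPM in epithelial and 6.73 to 78.5 CPM in mesenchymal nuclei, so it did not set progenitors apart from these. Progenitors differed from neurons mainly through SOX2 (51.3 to 60.6 CPM against 12.3 to 17.8 CPM in neurons). SOX10 was at 7.45 to 12.4 CPM in progenitors and 7.88 to 14.0 CPM in neurons and so did not separate them. Mesenchymal markers summed to 2019 to 2685 CPM in the mesenchymal class, which held only 40 and 33 nuclei in the day 42 samples of control and PP121. The epithelial class had 9 to 37 nuclei per sample and a summed epithelial marker level of only 61.9 to 80.3 CPM.

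Of the 31 members, 25 reached a mean of 10 CPM in enteric neurons, progenitor 1, progenitor 2 or the mesenchymal class. The highest of these means lay in enteric neurons for 11 members, in the mesenchymal class for 10 and in progenitor 2 for 4. PLXNB3, SEMA3B, SEMA3E, SEMA3G, SEMA4C and SEMA7A did not reach it. Because classes were made by clustering all genes, level differences between them are described without a test. In 14 of the 25 members the level was higher in enteric neurons than in progenitors in every one of the 4 samples, and in 5 it was lower in every sample. The shares over all genes were not computed for these counts, so they are not read as particular to the members.

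**Figure D1:**
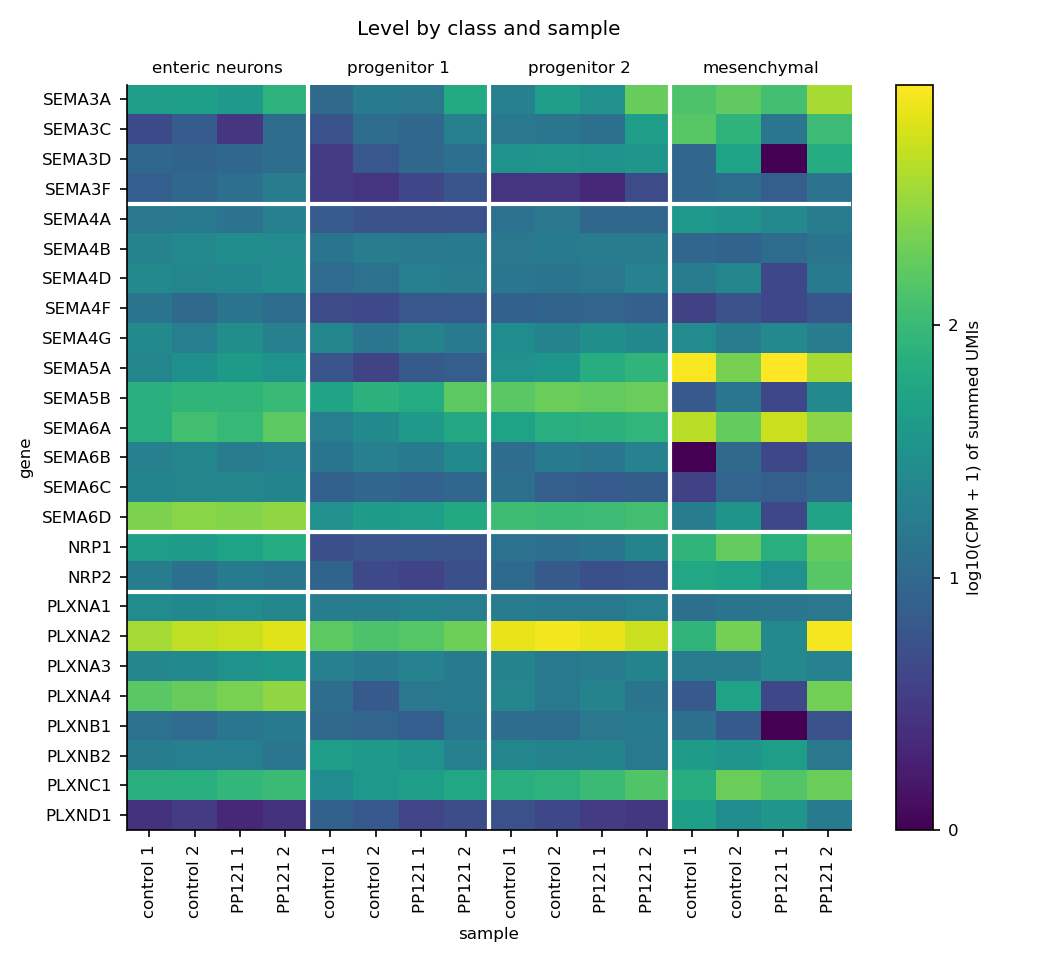
Level of the 25 members that reached 10 CPM, as log10(CPM + 1) of summed UMIs, by class and sample; rows are grouped into class 3 semaphorins, membrane semaphorins, neuropilins and plexins. PLXNA4 and SEMA6D are brightest in enteric neurons, PLXNA2 in progenitor 2 and neurons, and SEMA5A and SEMA6A in mesenchymal nuclei.

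Among the receptors, PLXNA4 separated neurons from progenitors most widely. This A-type plexin, a receptor for class 3 semaphorin and neuropilin complexes and for SEMA6A, was at 157, 185, 228 and 291 CPM in the enteric neurons of control 1, control 2, PP121 1 and PP121 2. In progenitors of the same samples it was at 17.8, 10.8, 17.5 and 13.5 CPM, a ratio of means of 14.5 with no overlap. NRP1, which binds SEMA3A, was at 44.5, 40.5, 50.7 and 66.9 CPM in neurons against 9.38, 8.52, 9.30 and 15.6 CPM in progenitors. Every neuronal value of NRP1 lay above every progenitor value, and the mesenchymal class was higher still at 70.7 to 181 CPM. NRP2, which binds SEMA3F and SEMA3C, was at 11.1 to 17.0 CPM in neurons and 3.68 to 8.76 CPM in progenitors. Its highest class mean, 135 CPM, was in the nuclei annotated as unknown.

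PLXNA2, another A-type plexin and a receptor for SEMA6A, had a different distribution. It was at 721, 795, 722 and 513 CPM in progenitor 2 and at 159, 133, 147 and 197 CPM in progenitor 1. The values of the 2 deposited progenitor classes did not overlap. Clusters made jointly from all samples did not separate these classes, however. A single joint cluster held 2395 progenitor 1 and 3040 progenitor 2 nuclei, and none was named for progenitor 1. Contrasts between the 2 classes here and below therefore rest on the deposited labels. Enteric neurons were at 355, 463, 523 and 650 CPM, between the progenitor classes in 3 of the 4 samples and above both in PP121 2. PLXNA1 and PLXNA3 had neuronal means 1.46 and 1.58 times the progenitor means and no overlap between the classes. PLXNC1, the receptor for SEMA7A, was at 70.3 to 102 CPM in neurons, 69.1 to 139 CPM in progenitor 2 and 26.5 to 57.8 CPM in progenitor 1. Of the remaining receptors, PLXND1, which binds SEMA3E, was highest in mesenchymal nuclei at 15.8 to 44.8 CPM and stayed at 1.13 to 2.25 CPM in neurons. PLXNB1 and PLXNB2, receptors for class 4 semaphorins, were at 9.83 to 15.3 and 13.4 to 17.9 CPM in neurons, and PLXNB2 was lower in neurons than in progenitors in every sample.

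For the secreted ligands SEMA3A, SEMA3C and SEMA3D, the highest levels were in classes other than neurons. SEMA3C was at 3.64, 6.22, 1.96 and 10.1 CPM in enteric neurons against 151, 81.5, 13.5 and 105 CPM in the mesenchymal class and 439, 198, 340 and 368 CPM in the small epithelial class. SEMA3D, a ligand for neuropilins, was at 31.7 to 34.7 CPM in progenitor 2 and 2.27 to 10.8 CPM in progenitor 1, without overlap, and at 179, 126, 284 and 52.3 CPM in the nuclei annotated as unknown. SEMA3A was at 42.7, 44.8, 37.1 and 80.5 CPM in neurons and at 132, 168, 118 and 370 CPM in mesenchymal nuclei. Against progenitors, SEMA3A was higher in neurons in 3 of the 4 samples, and among class 3 semaphorins that reached 10 CPM only SEMA3F, which acts through NRP2, was higher in neurons (6.65 to 16.8 CPM) than in progenitors (1.81 to 4.20 CPM) in all 4 samples.

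Membrane-bound semaphorins were split between neurons, progenitors and mesenchymal nuclei. SEMA6D, which binds PLXNA1 and PLXNA4, was at 235, 268, 255 and 287 CPM in neurons, 3.16 times the progenitor mean and higher than every mesenchymal value. SEMA5A, a transmembrane semaphorin with thrombospondin repeats, was at 846, 219, 895 and 369 CPM in mesenchymal nuclei and at 21.3, 29.7, 39.6 and 30.6 CPM in neurons. Between the progenitor classes SEMA5A did not overlap either, with 30.3 to 84.2 CPM in progenitor 2 and 3.01 to 6.90 CPM in progenitor 1. Its relative SEMA5B had the opposite pattern towards the mesenchyme, at 123 to 181 CPM in progenitors, 74.8 to 97.9 CPM in neurons and 3.36 to 24.5 CPM in mesenchymal nuclei. SEMA6A, a ligand of PLXNA2 and PLXNA4, was at 180 to 515 CPM in mesenchymal nuclei and at 70.0 to 159 CPM in neurons. SEMA4B, SEMA4D, SEMA4F and SEMA6C were each higher in neurons than in progenitors without overlap, with ratios of means of 1.55, 1.61, 1.75 and 2.63.

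Within control neurons, the deposited subtypes EN 1 to EN 8 differed widely, as the plot of control subtypes shows. SEMA6D was at 694 and 519 CPM in EN 8, 439 and 530 CPM in EN 4, and 402 and 536 CPM in EN 5 of control 1 and control 2. In EN 1 it was at 112 and 138 CPM and in EN 2 at 97.8 and 139 CPM, so that EN 4, EN 5 and EN 8 lay above EN 1 and EN 2 in both samples. SEMA5A followed only part of this order, with 60.8 and 95.9 CPM in EN 4 and 136 and 66.3 CPM in EN 8 but 8.61 and 9.08 CPM in EN 5. PLXNA2 was at 878 and 1125 CPM in EN 6, where PLXNA4 was at only 44.1 and 51.2 CPM. NRP1 was highest in EN 8, at 102 and 108 CPM, and lowest in EN 1 in control 1 (16.9 CPM) and in EN 5 in control 2 (18.2 CPM). PP121 samples carry another set of subtype names, and subtypes were therefore not compared between treatments.

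**Figure D2:**
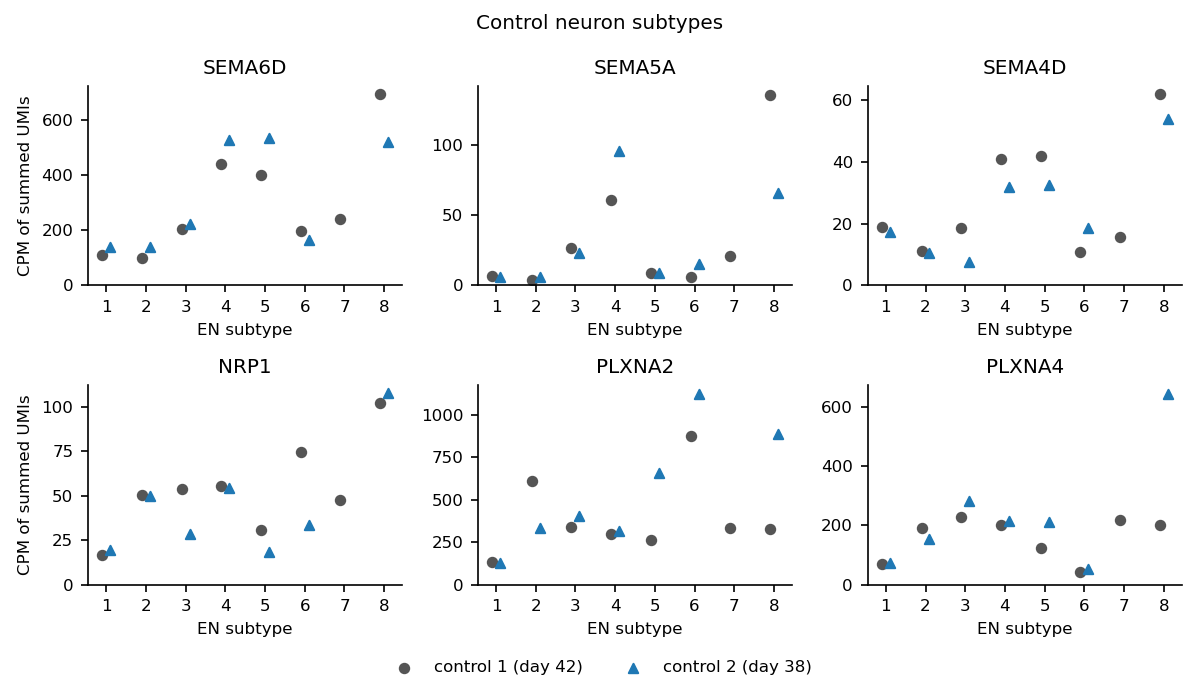
CPM of summed UMIs of 6 members in the control neuron subtypes EN 1 to EN 8; each point is 1 control sample, and only subtypes with at least 50 nuclei in a sample are drawn. SEMA6D and SEMA4D are highest in EN 4, EN 5 and EN 8, whereas PLXNA2 is highest in EN 6.

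Nitrergic neurons, which relax gut muscle by releasing nitric oxide, were next compared with the other enteric neurons of the same sample. SEMA6D was at 452, 532, 616 and 656 CPM in the nitrergic neurons of control 1, control 2, PP121 1 and PP121 2 and at 182, 214, 180 and 253 CPM in the other neurons. Every nitrergic value was above every other value, and the log2 difference was 1.5 ± 0.10 (SE, edgeR with the sample as a block, adjusted p = 2.36e-06). SEMA4D, a ligand of PLXNB1, was at 49.8, 43.2, 37.5 and 56.9 CPM against 17.0, 17.2, 18.9 and 23.4 CPM, again without overlap (log2 difference 1.35 ± 0.12, adjusted p = 1.73e-05). In all, 8 of the 28 members tested were higher in nitrergic neurons (7.89% of all 17714 genes were) and 2 were lower (4.38% of all genes). Groups did not overlap for 4 members that were higher (5.26% of all genes) and for 2 that were lower (5.65%).

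The other members that were higher were led by SEMA5A, at 44.4, 36.6, 115 and 107 CPM in nitrergic neurons against 15.3, 28.5, 21.7 and 19.0 CPM. The difference held in each sample and was larger in the PP121 samples (log2 difference over all samples 1.79 ± 0.27, adjusted p = 0.00083). SEMA3C, at 9.14, 13.7, 3.88 and 23.2 CPM against 2.32, 4.71, 1.11 and 8.75 CPM, was higher in each sample but overlapped across samples and rested on 12 to 34 nitrergic UMIs per sample (log2 difference 1.72 ± 0.24). SEMA3A, SEMA3E, NRP2 and PLXNC1 were higher by log2 differences of 0.76, 1.04, 0.78 and 0.71, with adjusted p-values from edgeR of 0.000401, 0.0359, 0.0115 and 0.000272. Ligands made up 6 of the 8, but they are also most of the 31 members, with 7 class 3 and 13 membrane-bound semaphorins. NRP2 was the exception to the direction in PP121 2, with 12.8 CPM in nitrergic and 14.1 CPM in other neurons. PLXNA1 and PLXNA2 were lower, each with a log2 difference of -0.53 and adjusted p-values of 0.0398 and 0.00444, and PLXNA1 lost its call when control 1, control 2 or PP121 1 was left out. NRP2 lost its call without control 1 or PP121 1, and SEMA3E, called in 5 of 12 settings, without control 2 or PP121 1. PLXNA2 was at 216, 311, 434 and 450 CPM in nitrergic neurons against 388, 498, 526 and 674 CPM, lower in each of the 4 samples.

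**Figure D3:**
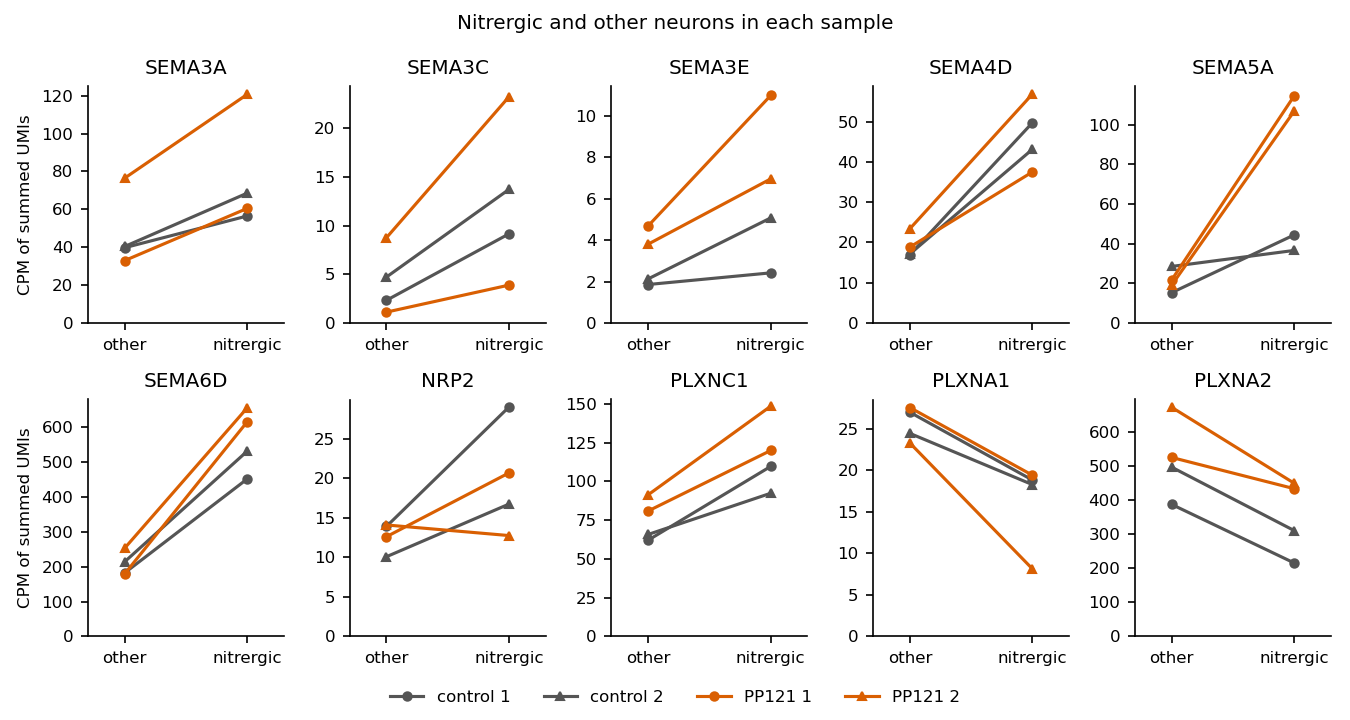
CPM of summed UMIs of the 10 members that passed the test between other and nitrergic neurons; each line joins the 2 values of 1 sample, and each vertical axis starts at 0. SEMA6D and SEMA4D rise without overlap in all 4 samples, SEMA5A is highest in the nitrergic neurons of the PP121 samples, and PLXNA1 and PLXNA2 fall.

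The nitrergic identity was assigned by the authors from NOS1, the nitric oxide synthase of neurons, and a score of related genes, after imputation that draws on all genes, so it is not independent of the members' values. Nitrergic neurons numbered 449, 230, 358 and 91 nuclei, whereas only 52, 30, 42 and 20 neurons held a NOS1 UMI. When neurons with and without a NOS1 UMI were compared instead, SEMA6D alone passed (log2 difference 0.63 ± 0.13, adjusted p = 0.0113; 0.41% of 17085 genes were called), SEMA5A turned to -0.48 and PLXNA1 to 0.03. The neurons with a NOS1 UMI were deeper, with a median of 8308.5 to 10520 UMIs against 7153.5 to 8019.5, and the part of this in the result was not tested.

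Of 40 co-receptors and downstream partners, 36 could be tested between nitrergic and other neurons, with 5 higher (7.89% of all genes) and 4 lower (4.38%). CNTN2, a cell adhesion molecule of axons, was lower (log2 difference -1.38 ± 0.10, adjusted p = 2.59e-06), as was CFL1, the actin-severing cofilin (-0.44 ± 0.09). CHL1, an L1-family adhesion molecule, was higher (1.02 ± 0.20), and RRAS2 and PAK1, a Ras-family GTPase and a kinase activated by Rac and Cdc42, were higher by 0.41 and 0.33.

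Treatment with PP121 was then compared with control in enteric neurons. PLXNA4 was at 157 and 185 CPM in control 1 and 2 and at 228 and 291 CPM in PP121 1 and 2, and PLXNA2 was at 355 and 463 against 523 and 650 CPM. Both were higher in each PP121 sample than in either control, with log2 ratios within day 42 and day 38 of 0.54 and 0.65 for PLXNA4 and 0.56 and 0.49 for PLXNA2. Without a block, edgeR called 0 of the 29 members and 0.0% of all 21243 genes; at an unadjusted p under 0.05 there were 8 members (12.0% of all genes), and DESeq2 called 0 members (0.48% of all genes). The replicate number pairs the samples by day, and with it as a block 9 members were higher (7.97% of all genes) and 0 lower (6.86% of all genes). Among them, PLXNA4 rose by 0.64 ± 0.09 (adjusted p = 1.53e-05 with the block, 0.377 without) and PLXNA2 by 0.56 ± 0.08 (adjusted p = 3.46e-05). The block leaves 1 residual degree of freedom, so its p-values rest largely on a spread estimated across genes. In enteric, nitrergic and other neurons alike, a change in subtype shares and a change in RNA per nucleus cannot be told apart.

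The other 7 were 4 ligands and 3 receptors. SEMA6A was at 70.0 and 113 CPM in the controls and at 95 and 159 CPM with PP121, so the groups overlapped across days while the log2 ratios within day 42 and day 38 were 0.44 and 0.49 (fitted rise 0.50 ± 0.10, adjusted p = 0.000604). Its unblocked difference depended on which sample was left out, from 0.06 without PP121 2 and 0.18 without control 1 to 0.86 without PP121 1 and 0.94 without control 2. SEMA3F was at 6.65 and 8.66 against 11.1 and 16.8 CPM, without overlap (0.88 ± 0.18, adjusted p = 0.00146). SEMA3E, the neuropilin-independent ligand of PLXND1, rose by 1.33 ± 0.30, but from levels of 1.95 and 2.62 CPM to 6.71 and 4.00 CPM.

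NRP1 and PLXNC1 rose by 0.48 ± 0.12 and 0.47 ± 0.10, and PLXNA3, a co-receptor for SEMA3F, by 0.54 ± 0.13 from 22.4 and 24 CPM to 31.5 and 34.3 CPM. SEMA5A was at 21.3 and 29.7 against 39.6 and 30.6 CPM (0.54 ± 0.15, adjusted p = 0.0145), with a log2 ratio of 0.90 on day 42 and 0.05 on day 38, and this call was made in 1 of the 14 settings run. Across the 29 members the median log2 difference was 0.18 in the blocked fit, against -0.01 over all genes. Groups did not overlap for 10 members that were higher (19.7% of all genes) and 2 that were lower (25.4% of all genes). With classes taken from joint clusters of all samples and the block, PLXNA2, PLXNA4, SEMA3F and SEMA6A passed (2.95% of all genes). DESeq2 with the block called PLXNA2, PLXNA4 and SEMA6A, and its count over all genes is given in the closing section.

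**Figure D4:**
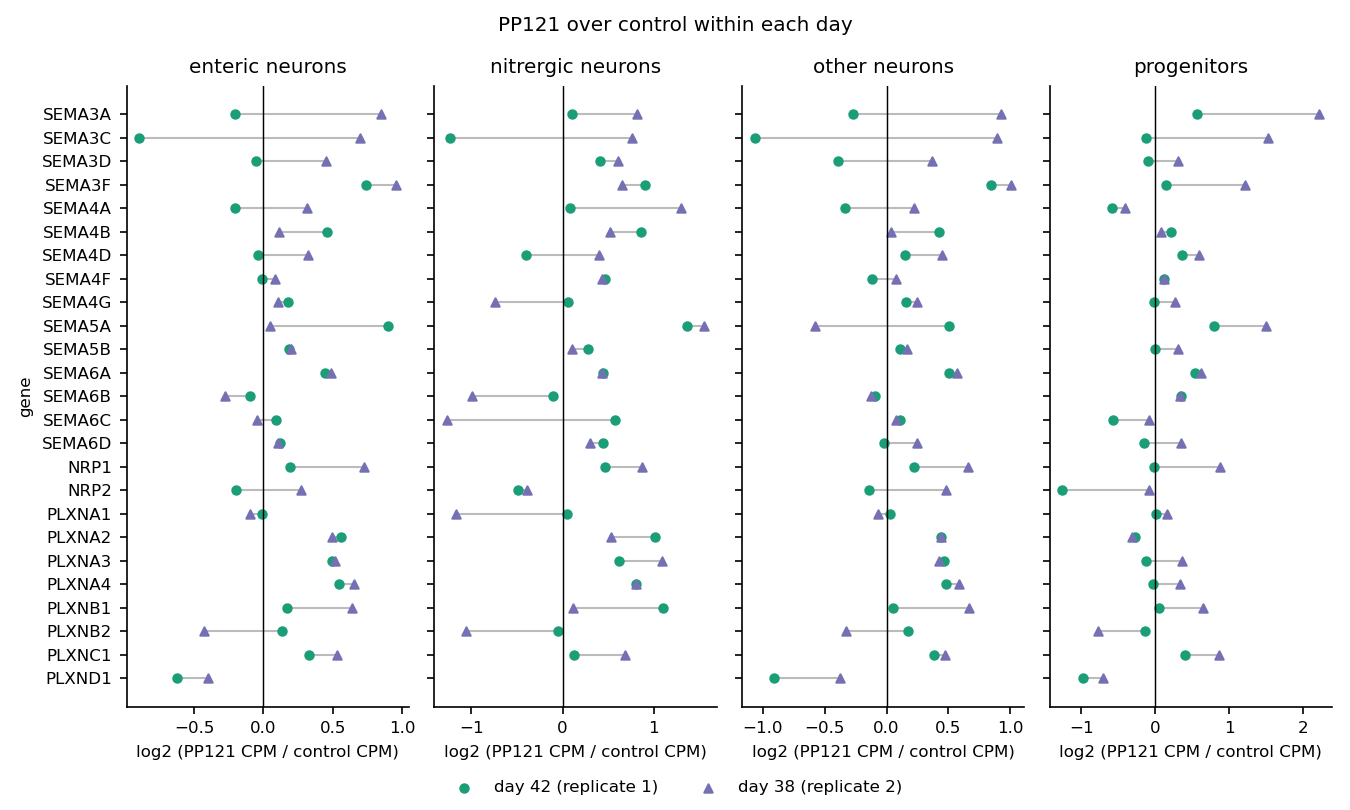
Log2 ratio of PP121 CPM to control CPM within day 42 and within day 38 for the 25 members, in 4 classes of nuclei; a grey line joins the 2 days, and ratios with under 3 UMIs in a sample are not drawn. PLXNA2, PLXNA3, PLXNA4, SEMA3F and SEMA6A lie right of 0 on both days in the 3 neuron panels, and PLXNA2 lies left of 0 in progenitors.

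The sequence before the starts is printed for 3 members that were higher with PP121 in nitrergic neurons, as given below: PLXNA2, PLXNA4 and SEMA5A. Each has a single start in the RefSeq promoter table (GRCh38.p14). PLXNA3, which also rose there and has a single start with 1 GC box, is not printed. Each run is the 120 bases directly before the annotated start, read 5′ to 3′ on the gene's own minus strand, with GC boxes (GGGCGG on either strand) in capitals. The stretch of PLXNA2 is chr1:208244385-208244504, that of PLXNA4 is chr7:132576471-132576590 and that of SEMA5A is chr5:9546076-9546195.
PLXNA2: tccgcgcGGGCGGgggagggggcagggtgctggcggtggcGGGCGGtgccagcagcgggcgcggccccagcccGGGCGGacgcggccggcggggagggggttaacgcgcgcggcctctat
PLXNA4: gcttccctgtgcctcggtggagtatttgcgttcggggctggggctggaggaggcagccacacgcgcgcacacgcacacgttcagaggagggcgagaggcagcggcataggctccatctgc
SEMA5A: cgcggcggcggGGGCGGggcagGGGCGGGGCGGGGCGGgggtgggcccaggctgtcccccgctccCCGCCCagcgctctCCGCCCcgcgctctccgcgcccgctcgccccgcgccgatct

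These windows held 3 GC boxes in PLXNA2, 6 in SEMA5A and none in PLXNA4, with G and C making up 83.3%, 87.5% and 66.7% of the bases. A GC box, the motif bound by SP1-family factors, was present in 34.0% of all 35116 promoter windows of this length and in 29 of the 48 windows of the 27 members the table holds. The 3 genes printed, which moved in the same direction in nitrergic neurons, therefore do not share this motif in the stretch shown, and a match is a description of letters only.

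In nitrergic neurons the difference with PP121 that had the smallest p among members was that of SEMA5A, at 44.4 and 36.6 CPM in the controls and 115 and 107 CPM with PP121. Both PP121 samples lay above both controls, and the log2 ratio was 1.37 within day 42 and 1.55 within day 38. The edgeR difference was 1.55 ± 0.18 with the replicate block (adjusted p = 6.45e-16) and 1.56 ± 0.18 without it (adjusted p = 0.0966). Estimate and SE hardly differed, so the gap between these p-values comes from the degrees of freedom and not from the pairing. With the block, p-values in nitrergic neurons rest almost wholly on a spread estimated across genes, not on that of the 4 samples. The UMIs of SEMA5A were concentrated. The 10 nuclei with the most held 56.4%, 69.4%, 49.2% and 89.1% of the 165, 72, 354 and 92 SEMA5A UMIs of nitrergic neurons. In the other neurons of the same samples SEMA5A was at 15.3 and 28.5 against 21.7 and 19.0 CPM, overlapping between treatments. The test of the difference between these responses, chosen after the values were seen, gave 1.52 ± 0.30 with an adjusted p of 0.0768 (range over alternatives 8.97e-07 to 0.352), so a difference was not established; 0 of 29 members passed against 0.147% of 19027 genes, with 4 members at an unadjusted p under 0.05 (6.69% of all genes) and 0 by DESeq2.

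Without a block 0 of 28 members passed in nitrergic neurons (0.0% of 15239 genes), with 10 members at an unadjusted p under 0.05 (14.0% of all genes), while DESeq2 called PLXNA2, PLXNA4 and SEMA5A (0.86% of all genes). With the replicate block 11 members were higher (6.79% of all genes) and 0 lower (3.67%). The limit given above for the blocked p-value of SEMA5A holds for these members too. PLXNA4 was at 143 and 219 CPM in the controls and at 248 and 382 CPM with PP121 (0.92 ± 0.13, adjusted p = 7.34e-10), and PLXNA2 was at 216 and 311 against 434 and 450 CPM (0.90 ± 0.13, adjusted p = 3.79e-10). Neither overlapped between treatments. SEMA6D, which was also higher in nitrergic than in other neurons, rose by 0.50 ± 0.12 (adjusted p = 0.00118).

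PLXNA3 rose by 0.92 ± 0.29 and NRP1 by 0.76 ± 0.19, while SEMA3A, SEMA3E, SEMA4B, SEMA6A and PLXNC1 made up the remainder with rises of 0.49 to 1.62. Of these, SEMA3A, SEMA3E, SEMA4B and PLXNC1 were each called in the blocked fit and in no other setting. Without PP121 2 the unblocked difference was 0.06 for SEMA3A and 0.16 for SEMA6A. SEMA3E had only 9, 10, 34 and 6 UMIs in the nitrergic neurons of the 4 samples. Between treatments, 14 members did not overlap in the higher direction and 2 in the lower, against 16.2% and 33.3% of all genes. The nitrergic neurons of PP121 2 numbered 91 nuclei, and with doublet candidates removed and the block PLXNA2, PLXNA4, SEMA5A, SEMA6A and SEMA6D passed (4.74% of all genes).

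In the other neurons, 0 of 29 members passed without a block (0.0% of 20183 genes; 6 at an unadjusted p under 0.05, 10.8% of all genes, and 0 by DESeq2, 0.263% of all genes), and with it 8 were higher (5.64% of all genes) and 0 lower (4.49%). These were NRP1, PLXNA2, PLXNA3, PLXNA4, PLXNC1, SEMA3E, SEMA3F and SEMA6A, all of which were also called in enteric neurons as a whole. PLXNA4 rose from 161 and 182 CPM to 224 and 273 CPM (0.56 ± 0.09, adjusted p = 0.000865), and SEMA3F from 7.03 and 8.97 CPM to 12.6 and 18.1 CPM (0.95 ± 0.20). Both lay above the controls in each PP121 sample. Groups did not overlap for 11 members that were higher (19.5% of all genes) and 2 that were lower (24.1%).

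Among the partners, 3 of 38 tested in enteric neurons were higher with the block (7.97% of all genes) and 0 lower (6.86%). LIMK1, the kinase that inactivates cofilin downstream of semaphorin signals, rose by 0.75 ± 0.13 (adjusted p = 0.00023), DPYSL5, a collapsin response mediator protein, by 0.34 ± 0.09, and MRAS, a Ras-family GTPase, by 0.53 ± 0.17. With the block in nitrergic neurons, 2 of 33 were higher (6.79% of all genes), CHL1 by 1.04 ± 0.25 and DPYSL5 by 0.59 ± 0.15, and in other neurons 1 of 38 was higher (5.64%), LIMK1 by 0.86 ± 0.14. None of these partners passed without the block, where the edgeR adjusted p was 0.377 for LIMK1, 0.407 for DPYSL5 and 0.378 for MRAS in enteric neurons, 0.158 for CHL1 and 0.245 for DPYSL5 in nitrergic neurons, and 0.412 for LIMK1 in other neurons.

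In progenitors the ligands SEMA5A and SEMA3A differed. SEMA5A was at 22.6 and 21.0 CPM in control 1 and 2 and at 39.2 and 59.4 CPM in PP121 1 and 2. Both PP121 samples lay above both controls, with log2 ratios of 0.80 within day 42 and 1.5 within day 38 (fitted rise 1.13 ± 0.21 with the block, adjusted p = 0.000796; 0.45 without). By class, it was at 30.3 and 34.2 against 68.7 and 84.2 CPM in progenitor 2, whereas progenitor 1 stayed at 3.01 to 6.90 CPM.

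SEMA3A was at 15.4 and 31.2 CPM in the controls and at 22.8 and 145 CPM with PP121. A single sample, PP121 2, stood apart, and PP121 1 lay below control 2. Within days the log2 ratio was 0.56 on day 42 and 2.22 on day 38 (fitted rise 1.42 ± 0.24 with the block, adjusted p = 0.000252; 1.86 ± 0.69 without it, adjusted p = 0.929), and without PP121 2 the unblocked difference was -0.10. Mesenchymal nuclei, which had the highest SEMA3A, were 422 in PP121 2 and 33 in PP121 1, and the summed mesenchymal markers in progenitors were 23.7, 63.7, 29.0 and 70.9 CPM in control 1, control 2, PP121 1 and PP121 2. Their part in the result was not tested.

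Without a block 0 of 29 members passed in progenitors (0.0% of 20260 genes; 5 at an unadjusted p under 0.05, 4.75% of all genes), DESeq2 called SEMA5A (0.212% of all genes), and with the block SEMA3A and SEMA5A were the 2 that were higher (1.16% of all genes) and 0 were lower (0.558%). Groups did not overlap for 9 members that were higher (15.7% of all genes) and 8 that were lower (12.9%). PLXNA2 in pooled progenitors was at 548 and 514 CPM in the controls and at 452 and 412 CPM with PP121, with log2 ratios of -0.28 and -0.32 within day 42 and day 38 and no call in either fit. The deposited classes, which joint clusters did not separate, did not share this fall. Progenitor 2 was at 721 in control 1 and 722 CPM in PP121 1 on day 42. On day 38 it was at 795 and 513 CPM. Progenitor 1, with the lower level, was at 159 and 147 and at 133 and 197 CPM. Progenitor 1 nuclei numbered 586 in control 1 and 1197 in PP121 1 on day 42, and 608 and 501 on day 38, and the part of this class mix in the pooled value was not tested. The edgeR test of the PP121 difference in neurons against that in progenitors gave 0.87 ± 0.18 for PLXNA2 (adjusted p = 0.164). In it 0 of 29 members passed (0.0% of 21787 genes), with 6 at an unadjusted p under 0.05 (9.74% of all genes). DESeq2 called PLXNA2, but the share of all genes it called is not given here, so this is not read as particular to PLXNA2. Joint clusters with the block called PLXNC1, SEMA3A, SEMA3C and SEMA5A in progenitors (3.82% of all genes). Of 37 partners CHL1 alone passed with the block, with a lower level in progenitors (-1.08 ± 0.26, adjusted p = 0.0194; 0.558% of all genes were lower), but its groups overlapped and the adjusted p without the block was 0.975.

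**Figure D5:**
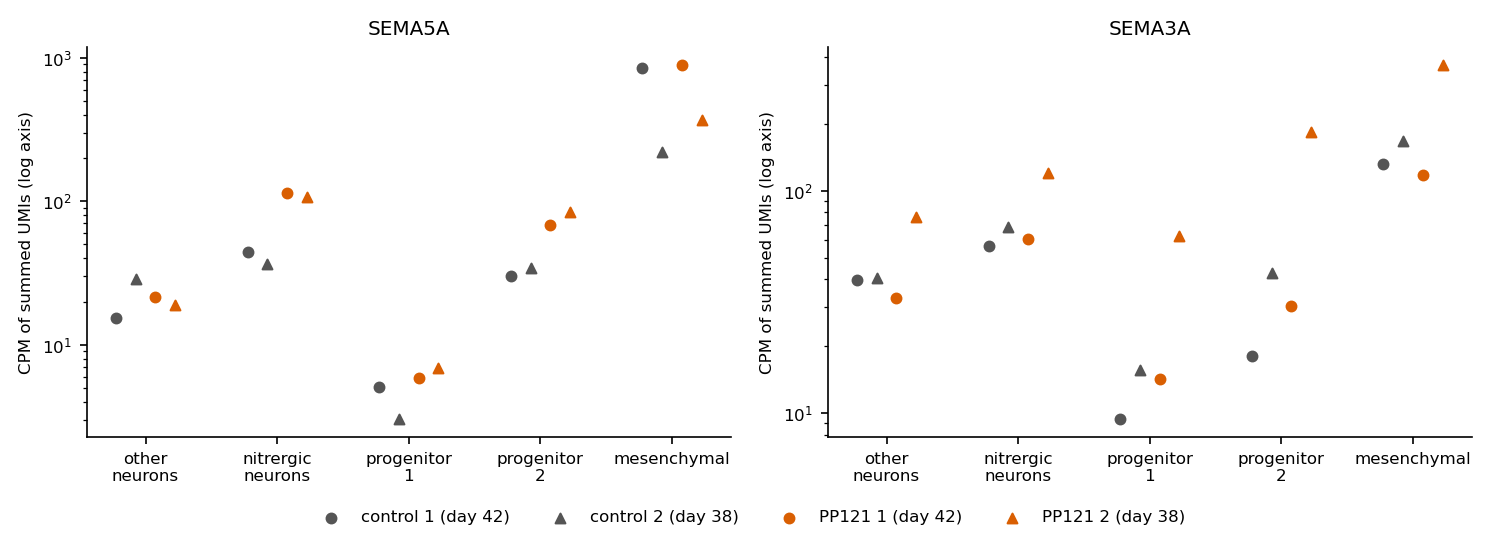
CPM of summed UMIs of SEMA5A and SEMA3A on a log axis in 5 classes; each point is 1 sample, coloured by treatment, with circles for day 42 and triangles for day 38. SEMA5A is higher with PP121 in nitrergic neurons and progenitor 2, and SEMA3A is highest in PP121 2 in every class drawn.

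Over all annotated nuclei, where a change in class shares and a change in RNA per nucleus cannot be told apart, 0 of 30 members passed without a block (0.0% of 24123 genes; 2 at an unadjusted p under 0.05, 4.61% of all genes, and 0 by DESeq2, 0.199%), and SEMA5A alone was higher with it (0.78 ± 0.13, adjusted p = 0.0338; 0.709% of all genes were higher and 0.174% lower). Groups did not overlap for 9 members that were higher (17.6% of all genes) and 1 that was lower (16.0%).

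Day 42 was compared with day 38 across both treatments. In enteric neurons SEMA6A was at 70.0 and 95 CPM in control 1 and PP121 1 on day 42 and at 113 and 159 CPM in control 2 and PP121 2 on day 38, without overlap. With treatment as a term it was lower on day 42 by -0.78 ± 0.10 on the log2 scale (adjusted p = 2.38e-06). SEMA3C, at 3.64 and 1.96 against 6.22 and 10.1 CPM, was also lower on day 42 (-1.56 ± 0.29, adjusted p = 0.000511). Of 29 members, 5 were lower on day 42 with this term (5.81% of all genes) and 1, SEMA4G, was higher (3.68%); without the term there were 0 calls (0.0% of all genes), with 5 members at an unadjusted p under 0.05 (7.41%) and 0 by DESeq2 (0.278%). Days did not overlap for 4 members that were higher on day 42 (24.8% of all genes) and 9 that were lower (14.2%). The remaining members that were lower were PLXNA2, PLXNA4 and SEMA3A, with differences of -0.41, -0.36 and -0.66, and PLXNA4 turned to 0.01 when PP121 2 was left out of the fit without the term.

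In progenitors SEMA3A was lower on day 42 by -2.00 ± 0.25 (adjusted p = 6.65e-07) and SEMA3C by -1.10 ± 0.26 with treatment as a term, the 2 members called of 29 (1.58% of all genes were lower and 1.41% higher), and 0 passed without it (0.0% of all genes; 4 at an unadjusted p under 0.05, 11.1%, and 0 by DESeq2, 0.523%). Days did not overlap for 2 members that were higher on day 42 (33.1% of all genes) and 5 that were lower (12.8%). Both genes are high in mesenchymal nuclei, and the day 38 samples held 408 and 422 such nuclei against 40 and 33 on day 42. The summed mesenchymal markers in neurons were 13.3 and 11.1 CPM on day 42 and 42.9 and 47.6 CPM on day 38, and their part in the day differences was not tested. With treatment as a term, the partners FYN, ITGB1, L1CAM and CNTN2 were lower on day 42 in neurons, by -0.32, -0.33, -0.37 and -0.28 (5.81% of all genes were lower), and CHL1 was higher in progenitors (1.03 ± 0.26; 1.41% of all genes). None passed without the term.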

How the data were processed

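Nuclei of 4 stage 1 ganglioid samples, 2 control and 2 PP121, had been profiled with the 10x Chromium Next GEM 3′ v3.1 kit. The deposited matrices hold raw UMI counts per gene and nucleus, for which the submitters' processing notes name Cell Ranger, Seurat 4.0.4 and GRCh38. Whether intronic reads were counted is not given in the sources used here. Cell classes, neuron subtypes, day and nitrergic identity were taken from the annotation the authors deposited, after nuclei marked Filtered were dropped (14812 of 25306 kept). One annotation column names other samples than the labels do for both control samples, and the labels were followed. The deposited percent columns give mitochondrial and ribosomal UMIs per nucleus as the authors computed them in Seurat, and no result uses them. The 236 neurons with no nitrergic identity were left out of both neuron groups, more of them in PP121 samples than in controls. Enteric neurons numbered 2301 and 1250 in control 1 and 2, with 449 and 230 nitrergic and 1836 and 1004 other. In PP121 1 and 2 they numbered 2030 and 976, with 358 and 91 nitrergic and 1529 and 824 other. The part of this in the PP121 differences was not tested.

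UMIs were summed per class and sample and tested with edgeR 4.0.16 (quasi-likelihood, TMM, Benjamini-Hochberg over all genes passing the default filter, adjusted p under 0.05) in R 4.3.3, without a block as the first fit, which leaves 2 residual degrees of freedom. Nitrergic and other neurons were compared with the sample as a block. DESeq2 1.42.0, other filters, each sample left out, joint clusters (scanpy 1.11.5, 2000 variable genes, 30 components, resolution 0.2) and removal of doublet candidates were alternatives. The automatic doublet threshold marked at most 1 nucleus per sample and had not worked, so the top 5% of scores per sample were removed. Replicate numbers were checked for pairing: same-numbered samples share a day, and their deviations from the group means correlated (0.421 in enteric neurons, 0.284 in progenitors, 0.208 in nitrergic neurons). The edgeR tests of PP121 and of day in enteric neurons and of nitrergic against other neurons were tried on simulated counts. So was the test of the PP121 difference between nitrergic and other neurons, and the remaining tests were not.

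Members and gene lists were chosen with earlier results of these data known. Genes named are members that passed a test, those with the widest class differences, and partners that passed. The promoter table is from RefSeq (GRCh38.p14) and holds 27 of the 31 members.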

Additional observations from a re-analysis of the deposited data

Results flagged for a closer look

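There were 3 members that moved one way with PP121 in enteric neurons on both days and the other way in pooled progenitors on both days. For PLXNA2 the mean log2 ratio of PP121 to control was 0.53 in enteric neurons and -0.30 in pooled progenitors, a difference of 0.82. The size depended on the class labels. In the fits with the replicate block, PLXNA2 differed by 0.56 in enteric neurons and -0.31 in progenitors with the deposited classes. With joint clusters these were 0.41 ± 0.09 and -0.14 ± 0.15. Within the deposited progenitor classes PLXNA2 did not fall on both days. The log2 ratio on day 42 and day 38 was 0.0024 and -0.63 in progenitor 2 and -0.11 and 0.57 in progenitor 1. Progenitor 1 nuclei numbered 1197 in PP121 1 against 586 in control 1. Joint clusters did not separate these 2 classes, so this split could not be checked with them. For SEMA6B the means were -0.19 and 0.34, a difference of -0.52, and for PLXNA1 they were -0.05 and 0.09, a difference of -0.14. The edgeR test of the difference gave adjusted p-values of 0.164, 0.582 and 0.932 for these genes in that order, so none passed.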

How the results depend on the processing

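The number of members called depended on the replicate block, which pairs samples by day and leaves 1 residual degree of freedom, and on the filter and the samples kept. Against 0 without it, the block gave 9 in enteric neurons, 2 in progenitors, 11 in nitrergic neurons, 8 in other neurons and 1 over all nuclei. DESeq2 with the block gave 3, 1, 3, 3 and 1, and removal of doublet candidates with the block 8, 2, 5, 8 and 1. Joint clusters with the block gave 4, 4, 7 and 7 in the first 4 classes. Progenitor 1 alone with the block gave 5, with SEMA3A, SEMA3D, SEMA5B and SEMA6A higher and PLXNB2 lower. Progenitor 2 alone with the block gave 5, all higher: PLXNC1, SEMA3A, SEMA3C, SEMA5A and SEMA6A. No share over all genes stands beside these counts here, and they show only how the calls depend on processing. DESeq2 without the block gave 1 in progenitors and 3 in nitrergic neurons, and no filter gave 3, 5 and 3 in progenitors, nitrergic and other neurons. Leaving out 1 sample gave 0 to 6 in enteric neurons (6 without PP121 replicate 1), 0 to 3 in progenitors, 1 to 4 in nitrergic neurons and 0 to 5 in other neurons. Over all genes in enteric neurons, 0 calls became 3152 with the block (1694 higher, 1458 lower), 640 with DESeq2 and the block (460 higher, 180 lower) and 102 with DESeq2 alone.

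For day, treatment as a term gave 6 members in neurons and 2 in progenitors against 0, no filter gave 1 in neurons, and leaving out 1 sample gave 0 to 2 and 0 to 5. Of the 10 members called between nitrergic and other neurons, 3 remained without the sample block, 1 by NOS1 UMIs and 6 in PP121 samples alone, and leaving out 1 sample gave 7 to 11. For PP121 in neurons against progenitors, DESeq2 gave 1, no filter 3 and leaving out 1 sample 0 to 2 against 0. For the PP121 difference in nitrergic neurons against that in other neurons, no filter gave 1 and leaving out 1 sample 0 to 1 against 0. Reversed values were SEMA3A in progenitors (-0.10 without PP121 replicate 2, highest 2.68 without PP121 replicate 1), PLXNA4 by day in neurons (0.014 without PP121 replicate 2, lowest -0.68 without PP121 replicate 1), and PLXNA1 (0.025) and SEMA5A (-0.48) by NOS1 UMIs, where only 20 to 52 neurons per sample held a UMI. The cause was not tested.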
